A study of Mus musculus with 30 samples.

Results

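The 10 genes described here make up the core of the Toll-like receptor 4 (TLR4) and NF-κB pathway: Tlr4, Myd88, Chuk, Ikbkb, Ikbkg, Nfkb1, Rela, Nfkbia, Ccl2 and Tnfrsf1a. They were picked by name out of the 54232 genes of the count table, matched by Ensembl identifier to mouse gene symbols, and followed through the 6 groups of the study. All 10 were among the 20139 genes with more than 14 counts over the 30 libraries, which were the genes tested. RNA was sequenced from 3T3-L1 cells, a clonal mouse preadipocyte line, that were kept for 5 days in adipogenic medium with insulin, dexamethasone, isobutylmethylxanthine and indomethacin. Every group, the Control group included, received this medium, so dexamethasone and indomethacin, both anti-inflammatory drugs, were shared by all 30 libraries. The groups of 5 libraries were Control, pNaKtide (0.7 µM, a peptide made to block Src signaling through the Na,K-ATPase), IS (indoxyl sulfate, a uremic toxin, 100 µM), IS+pNaKtide, oxLDL (oxidized low-density lipoprotein, 50 µg/mL) and oxLDL+pNaKtide. The labels give 5 days of treatment, where the methods of the study give a shorter schedule, and their source is 3T3 cells although the extraction protocol speaks of adipose tissue. The samples were treated as cells here. The labels do not say that the libraries of a group came from separate cultures, so the p-values measure only the spread between these samples.

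TLR4 is a receptor at the cell surface that recognizes bacterial lipopolysaccharide and is also studied as a sensor of oxidized lipids and fatty acids. Through adaptors such as MyD88 it activates the IκB kinase (IKK) complex, which marks the inhibitor IκBα for degradation and so frees NF-κB dimers, such as p50 with p65, to enter the nucleus and switch on chemokine and cytokine genes. TNF receptor 1 reaches the same kinase complex by another route, and in fat tissue both receptors are known for linking lipid excess to inflammation and insulin resistance. Much of this signaling is carried by protein modification and movement, which RNA levels do not measure.

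Levels are given as CPM, counts scaled to a common library size, after TMM scaling, a correction for library composition. A gene was called at a Benjamini-Hochberg (BH) adjusted p below 0.1 in edgeR's quasi-likelihood test, two-sided, with the 6 groups fitted together. Between 6945498 and 15159877 counts fell on genes per library (median 11524210). The libraries differed in how their counts depended on the GC content of the gene. The slope of log2 level over GC content, per 10 percentage points, had a median of 0.25 in Control, 0.24 in pNaKtide and 0.17 in oxLDL+pNaKtide libraries, against -0.25 in IS, -0.10 in IS+pNaKtide and -0.31 in oxLDL libraries. Control replicate 1 (-0.17), IS replicate 4 (0.26) and pNaKtide replicate 3 (-0.15) stood apart from their groups in this slope, and oxLDL+pNaKtide replicate 4 had the steepest one (0.62). A second fit took the dependence on GC content and transcript length out of each library as an offset (trend out), and the calls of the 10 genes that it ended are named. The 10 adipocyte marker genes were all expressed, with a summed level of 11443 to 19203 CPM per library. With oxLDL 0 of these 10 markers were higher and 4 lower, beside 36% of all genes called, and with the trend out 2 others were lower (19% of all genes). With IS 0 were higher and 4 lower (median log2 fold change -0.34, 7.94% of all genes), and with the trend out 4 were lower (4.18%), 2 of them in both fits. With pNaKtide added to oxLDL 6 were higher and 0 lower (median 0.36, 48.3% of all genes), and with the trend out 7 were higher and 0 lower (36.3%), 4 of them in both fits. Of 10 preadipocyte or fibroblast markers, 3 were lower with IS in both fits (median -0.36). With oxLDL 1 of these was higher and 2 lower, and with pNaKtide added 2 were higher and 2 lower, or 5 higher and 2 lower with the trend out. The part of these markers in the results was not tested. Of 10 leukocyte markers, 5 had more than 14 counts over the 30 libraries (Cd68, Csf1r, Fcgr1, Lyz2 and Mrc1). The 10 summed to between 4.59 and 8.69 CPM per library. Of the others, Ptprc, Itgam and Tyrobp, which define leukocytes and myeloid cells, had 0 counts in all 30 libraries.

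Compared per length, as FPKM (fragments scaled to transcript length and to depth), Tnfrsf1a was the most abundant of the 10 genes in Control cells, at 143 ± 16.5 FPKM (SD, n = 5). Nfkbia followed at 45.2 ± 5.24, Myd88 at 23.7 ± 2.12 and Rela at 21.7 ± 2.54 FPKM. Chuk (6.50 ± 1.92), Ikbkg (6.29 ± 0.674), Nfkb1 (3.46 ± 0.212) and Ikbkb (2.22 ± 0.165) were lower. Tlr4, at 1.44 ± 0.429 FPKM, and Ccl2, at 1.12 ± 0.241 FPKM, were the least abundant. TNF receptor 1 RNA was thus well above that of TLR4 in these cells, with no overlap between the libraries. The ranges of Myd88 and Rela, of Chuk and Ikbkg, of Ikbkb and Tlr4, and of Tlr4 and Ccl2 overlapped in Control cells, so these neighbours could not be ordered. With oxLDL, Chuk lay above Ikbkg without overlap (10.7 ± 1.29 against 6.89 ± 0.233 FPKM), and with oxLDL+pNaKtide the ranges of the 2 genes overlapped again.

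Exposure to oxLDL was compared with Control to ask how an oxidant lipid load changed the pathway, and oxLDL+pNaKtide with oxLDL to ask how the peptide changed it in loaded cells. Over the 6 groups, 7 of the 10 genes differed (all but Myd88, Ikbkb and Nfkbia), where 45.1% of all genes tested did. With the trend out, Tlr4, Ikbkg and Rela lost this call (adjusted p = 0.291, 0.53 and 0.878) and Nfkbia gained it (0.000252), and 35.7% of all genes were called. DESeq2 also called Myd88 (adjusted p = 0.0657). With oxLDL, 3 of the 10 genes were higher (Tlr4, Chuk and Ccl2) and 3 were lower (Myd88, Rela and Tnfrsf1a). Of all genes tested 36% were called in this comparison, 18.1% as higher and 18% as lower. Adding pNaKtide to oxLDL gave 7 calls, with Tlr4, Chuk, Ikbkg, Nfkb1 and Ccl2 lower and Rela and Tnfrsf1a higher. Of all genes 48.3% were called in it, 26.1% as lower and 22.1% as higher. In each of these 7 genes the oxLDL+pNaKtide and oxLDL libraries did not overlap, as was so for 28.4% of all genes. Both comparisons use the same oxLDL libraries, so opposite signs in them are not independent. In bulk RNA, fewer cells of a type and less RNA per cell cannot be told apart. A large part of all genes thus differed between the same libraries.

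**Figure D1:**
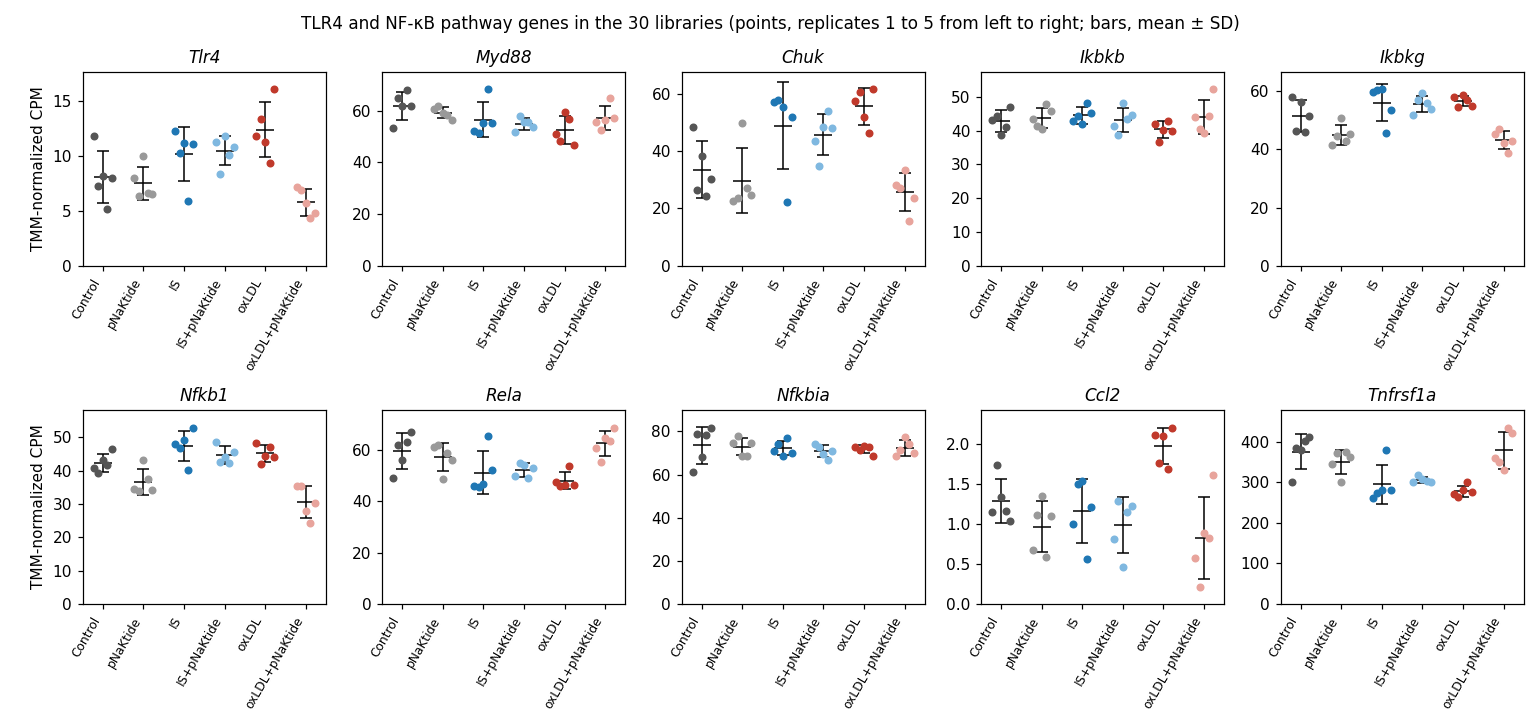
TMM-normalized CPM (y axis, linear, from 0) of the 10 pathway genes in the 30 libraries, by group (x axis). Points are libraries and black bars the mean ± SD of 5 libraries. Tlr4, Chuk, Ikbkg, Nfkb1 and Ccl2 are lower and Rela and Tnfrsf1a higher in every oxLDL+pNaKtide than in every oxLDL library, whereas Ikbkb, at 36.6 to 52.2 CPM, and Nfkbia, at 61.4 to 81.7 CPM, overlap in all groups.

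Among the receptors, Tlr4 (chr4:66827584-66930284, plus strand, GRCm38, protein-coding like the other 9 genes) stood at 11.8, 7.27, 8.21, 5.17 and 7.94 CPM in Control replicates 1 to 5 and at 11.9, 13.4, 11.2, 9.35 and 16.1 CPM with oxLDL. With oxLDL+pNaKtide it stood at 7.18, 6.86, 5.69, 4.30 and 4.83 CPM. Control replicate 1 was as high as the oxLDL libraries, so those groups overlapped, and all oxLDL+pNaKtide libraries lay below all oxLDL libraries. Tlr4 was 1.53-fold higher with oxLDL than in Control (log2 fold change 0.61 ± 0.18 SE, adjusted p = 0.0167), a call that ended with the trend out (0.01, adjusted p = 0.975). It fell by 1.09 ± 0.19 on the log2 scale with pNaKtide added (adjusted p = 6.4e-05). Tnfrsf1a (chr6:125349362-125362484, plus strand), the main receptor for TNF, moved the other way. Its level was 301, 384, 380.4, 401 and 412 CPM in Control and 270.3, 264, 281, 300.2 and 275 CPM with oxLDL, and all oxLDL libraries lay below all Control libraries. With oxLDL+pNaKtide it was 359, 351, 331, 434 and 421 CPM. The log2 fold change of Tnfrsf1a was -0.43 ± 0.10 with oxLDL (adjusted p = 0.00783) and 0.45 ± 0.10 with pNaKtide added (adjusted p = 0.000555). It was the only one of the 10 genes whose oxLDL and Control libraries did not overlap, where 8.35% of all genes showed this.

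Myd88 (chr9:119335934-119341411, minus strand), the adaptor that most Toll-like receptors and the interleukin 1 receptor share, was 61.9 ± 5.53 CPM in Control, 52.4 ± 5.48 with oxLDL and 57.2 ± 4.65 with oxLDL+pNaKtide (n = 5 each). It was lower with oxLDL than in Control (log2 fold change -0.24 ± 0.08, adjusted p = 0.0319). This call was lost without oxLDL replicate 5 (adjusted p = 0.101) and with the trend out (adjusted p = 0.776). The change of Myd88 with pNaKtide added was 0.13 ± 0.08 (adjusted p = 0.239).

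Of the 3 subunits of the IKK complex, Chuk (chr19:44073335-44107480, minus strand) encodes IKKα, a catalytic subunit. Its level was 48.2, 26.2, 38.4, 24.4 and 30.2 CPM in Control, 57.4, 60.7, 51.8, 46.2 and 61.4 CPM with oxLDL, and 28.3, 27.0, 33.3, 15.6 and 23.6 CPM with oxLDL+pNaKtide. Control replicate 1 was again within the oxLDL range. Chuk was 1.66-fold higher with oxLDL (log2 fold change 0.73 ± 0.23, adjusted p = 0.0205) and fell by 1.11 ± 0.23 on the log2 scale with pNaKtide added (adjusted p = 0.000379). Ikbkb (chr8:22659212-22706589, minus strand) encodes IKKβ, the catalytic subunit of the classical pathway. It was 42.8 ± 3.17 CPM in Control, 40.3 ± 2.44 with oxLDL and 44.0 ± 5.06 with oxLDL+pNaKtide, and neither change passed the test (-0.09 with a 95% interval of -0.25 to 0.08, and 0.13 with -0.04 to 0.29). Ikbkg (chrX:74393290-74453854, plus strand) encodes the regulatory subunit NEMO. It was 58.0, 46.2, 56.3, 45.9 and 51.5 CPM in Control, 57.9, 54.8, 58.9, 57.1 and 55.1 CPM with oxLDL, and 45.2, 47.2, 42.3, 38.9 and 42.8 CPM with oxLDL+pNaKtide. The Control libraries of Ikbkg spanned nearly the whole distance between the other 2 groups. Its change with oxLDL was 0.14 ± 0.08 (adjusted p = 0.227), and it fell by 0.39 ± 0.08 on the log2 scale with pNaKtide added (adjusted p = 0.000432), a call that ended with the trend out (-0.03, adjusted p = 0.774).

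Of the NF-κB subunits, Nfkb1 (chr3:135584655-135691547, minus strand) encodes p105, the precursor of p50. It was 40.9, 39.2, 43.1, 41.7 and 46.4 CPM in Control and 48.3, 42.0, 44.3, 47.0 and 44.1 CPM with oxLDL, 2 groups that overlapped (log2 fold change 0.10 ± 0.09, adjusted p = 0.463). With oxLDL+pNaKtide it was 35.4, 35.4, 27.7, 24.3 and 30.4 CPM. Every one of these values lay below every Control and every oxLDL library, and 4.03% of all genes likewise had no overlap between oxLDL+pNaKtide and Control. With the trend out, the oxLDL+pNaKtide and Control libraries of Nfkb1 overlapped. Against oxLDL, Nfkb1 fell by 0.56 ± 0.09 (log2, adjusted p = 4.12e-05), and against Control it fell by 0.46 ± 0.09 (adjusted p = 0.00655). Rela (chr19:5637483-5648130, plus strand) encodes p65, the subunit that carries the transactivation domain. It was 49.1, 62.0, 56.3, 63.2 and 67.1 CPM in Control, 47.4, 45.9, 46.6, 53.8 and 46.6 CPM with oxLDL, and 60.7, 55.4, 64.6, 63.7 and 68.8 CPM with oxLDL+pNaKtide. The oxLDL libraries were low and Control replicate 1 lay among them. Rela was lower with oxLDL (log2 fold change -0.31 ± 0.10, adjusted p = 0.0192) and higher with pNaKtide added (0.38 ± 0.10, adjusted p = 0.00172). Both calls of Rela ended with the trend out (adjusted p = 0.752 and 0.461).

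Nfkbia (chr12:55489410-55492647, minus strand) encodes IκBα, the inhibitor that is itself switched on by NF-κB and so closes a feedback loop. It was 61.4, 78.6, 68.1, 78.4 and 81.7 CPM in Control, 72.8, 71.5, 73.4, 72.6 and 68.5 CPM with oxLDL, and 68.8, 71.4, 77.6, 74.0 and 69.8 CPM with oxLDL+pNaKtide. The groups overlapped, and the log2 fold changes were -0.04 (95% interval -0.18 to 0.11) with oxLDL and 0.01 (-0.14 to 0.16) with pNaKtide added. The RefSeq promoter table of the build GRCm38.p6 held windows for 6 of the 10 genes, 300 bases each from 250 bases before to 50 bases after a transcript start. Tlr4, Ikbkb, Nfkb1 and Ccl2 were not matched. The Nfkbia window is shown because it was the only one of the 9 windows of these 6 genes with a match to the κB consensus motif, searched on both strands, which 4.51% of all 32851 windows in the table held. It lies at chr12:55492598-55492897 on the minus strand, written 5′ to 3′ along the gene, and the capitals mark the κB match, whose first base is 29 bases before the start:
Nfkbia promoter: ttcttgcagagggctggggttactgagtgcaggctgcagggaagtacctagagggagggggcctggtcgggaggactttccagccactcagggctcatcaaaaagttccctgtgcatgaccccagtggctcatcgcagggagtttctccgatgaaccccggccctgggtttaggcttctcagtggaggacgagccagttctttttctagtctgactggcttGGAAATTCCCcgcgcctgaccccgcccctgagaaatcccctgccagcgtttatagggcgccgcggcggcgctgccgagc
A match describes the letters only.

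Ccl2 (chr11:82035571-82037453, plus strand) encodes the monocyte chemoattractant MCP-1, a classical NF-κB target. It was close to the limit of detection, with 431 counts over the 30 libraries and 2 to 30 counts in each. It stood at 1.15, 1.74, 1.34, 1.16 and 1.04 CPM in Control, 2.12, 1.77, 2.10, 1.69 and 2.21 CPM with oxLDL, and 0.579, 0.211, 0.888, 0.828 and 1.61 CPM with oxLDL+pNaKtide. The highest Control library lay above the lowest oxLDL library. Ccl2 was 1.52-fold higher with oxLDL, a change near the threshold (log2 fold change 0.60 ± 0.27, adjusted p = 0.0994) that did not pass with the trend out (adjusted p = 0.321), and of the 10 fits that each left out 1 of these libraries only those without Control replicate 2 or oxLDL replicate 4 kept the call. Ccl2 fell by 1.23 ± 0.31 on the log2 scale with pNaKtide added (adjusted p = 0.00182), and this call held in all 10 such fits.

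**Figure D2:**
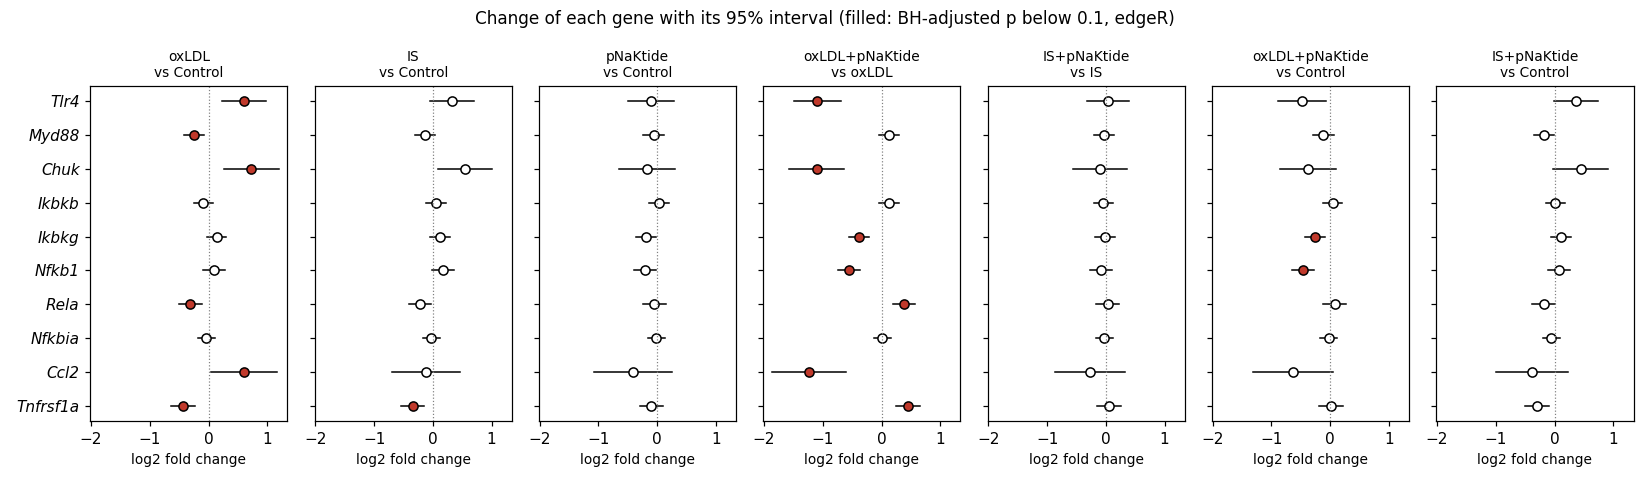
Log2 fold change (x axis) of the 10 pathway genes (y axis) in the 7 comparisons of groups, with 95% intervals as lines. Filled points passed a BH-adjusted p of 0.1 in edgeR, 6 with oxLDL and 7 with pNaKtide added to oxLDL, while no gene passed in IS+pNaKtide vs IS or in pNaKtide vs Control.

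With oxLDL, the direction of the called changes went with the GC content of the genes. Tlr4 (40.5% GC over its transcripts), Chuk (42.8%) and Ccl2 (43.9%) were the 3 genes of lowest GC content and the 3 that were higher with oxLDL. Myd88 (54.3%), Tnfrsf1a (56.3%) and Rela (58.8%), the 3 that were lower, were among the 4 of highest GC content. The remaining gene of these 4 was not called. Over the genes whose mean log2 CPM reached 1, the medians of bins of GC content followed the same trend, while single genes varied within each bin. With oxLDL, the median log2 fold change of the 649 genes with 40 to 42% GC was 0.55, near the 0.61 of Tlr4, and that of the 652 genes with 58 to 60% GC was -0.32, near the -0.31 of Rela. With pNaKtide added to oxLDL, these medians were -0.73 and 0.33, beside -1.09 for Tlr4 and 0.38 for Rela. Nfkb1, at 51.0% GC, fell by 0.56 where the median of the genes with 50 to 52% GC was 0.08. Chuk, Ccl2 and Nfkb1 then lay below the 10th percentile of their bins.

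**Figure D3:**
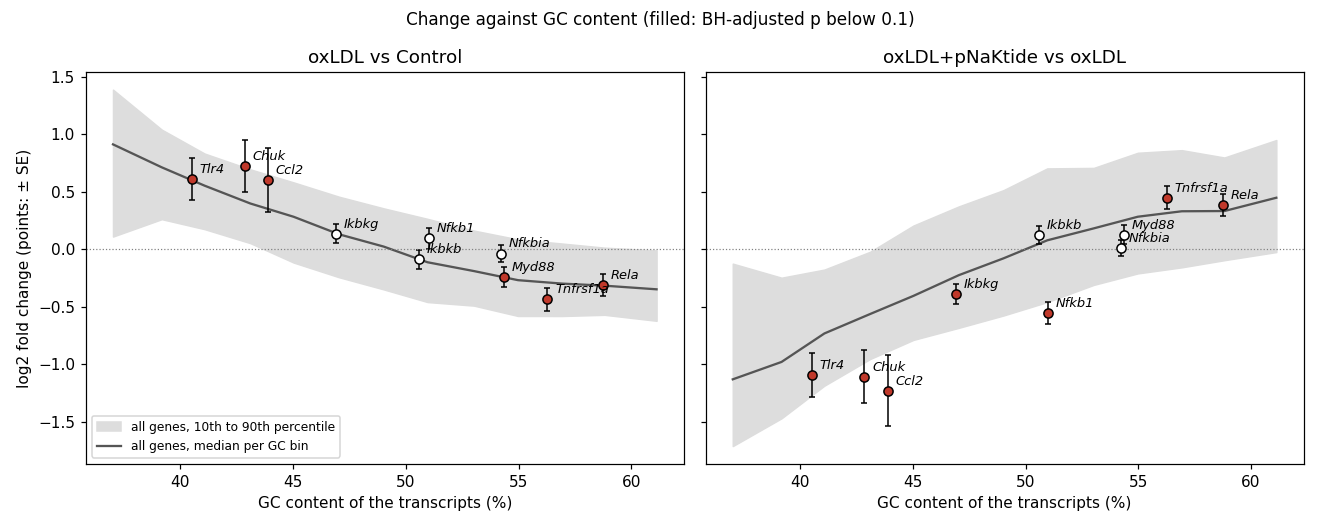
Log2 fold change (y axis, ± SE) against the GC content of the transcripts (x axis, percent) for the 10 pathway genes, over the median (line) and the 10th to 90th percentile (band) of genes whose mean log2 CPM reached 1, in bins of GC content. Filled points passed a BH-adjusted p of 0.1. Tlr4 and Rela lie near the line with oxLDL (left), and Nfkb1, Ccl2 and Chuk lie below the band with pNaKtide added (right).

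With the trend out, 3 of the 10 genes were called with oxLDL, beside 19% of all genes. Chuk stayed higher (log2 fold change 0.31 ± 0.13, adjusted p = 0.0998) and Tnfrsf1a lower (-0.17 ± 0.06, adjusted p = 0.0486). Not called were Tlr4 at 0.01 ± 0.11, Myd88 at -0.03 ± 0.05, Rela at -0.03 ± 0.06 and Ccl2 at 0.41 ± 0.26. Nfkbia became higher with oxLDL, at 0.24 ± 0.06 (adjusted p = 0.0206), where the fit without the offset gave -0.04. Its levels with the trend out were 72.3, 70.1, 65.1, 68.1 and 72.8 CPM in Control, 85.3, 87.6, 79.1, 75.8 and 83.9 CPM with oxLDL, and 63.8, 69.2, 71.5, 56.4 and 61.4 CPM with oxLDL+pNaKtide. On this scale all 5 oxLDL libraries of Nfkbia lay above all libraries of the other 2 groups, where 5.71% of all genes had no overlap between oxLDL and Control and 19.7% none between oxLDL+pNaKtide and oxLDL.

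With pNaKtide added to oxLDL and the trend out, 8 of the 10 genes were called, beside 36.3% of all genes. Chuk fell by 0.51 ± 0.13, Nfkb1 by 0.40 ± 0.09, Ccl2 by 1.06 ± 0.30 and Nfkbia by 0.35 ± 0.07 in log2 units (adjusted p = 0.0032, 0.000456, 0.0069 and 9.45e-05). Tlr4 fell by 0.28 ± 0.12 (adjusted p = 0.0651), where it had fallen by 1.09 without the offset, and Myd88 fell by 0.13 ± 0.05 (adjusted p = 0.0624) where it had been 0.13 higher. Ikbkb became higher (0.33 ± 0.10, adjusted p = 0.0113), Tnfrsf1a stayed higher (0.13 ± 0.06, adjusted p = 0.0966), and Ikbkg (-0.03, adjusted p = 0.774) and Rela (0.06, adjusted p = 0.461) no longer passed. Called lower in both fits were therefore Tlr4, Chuk, Nfkb1 and Ccl2, and Tnfrsf1a was called higher in both. Whether the GC trend arose in the cells or in the making of the libraries was not tested.

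**Figure D4:**
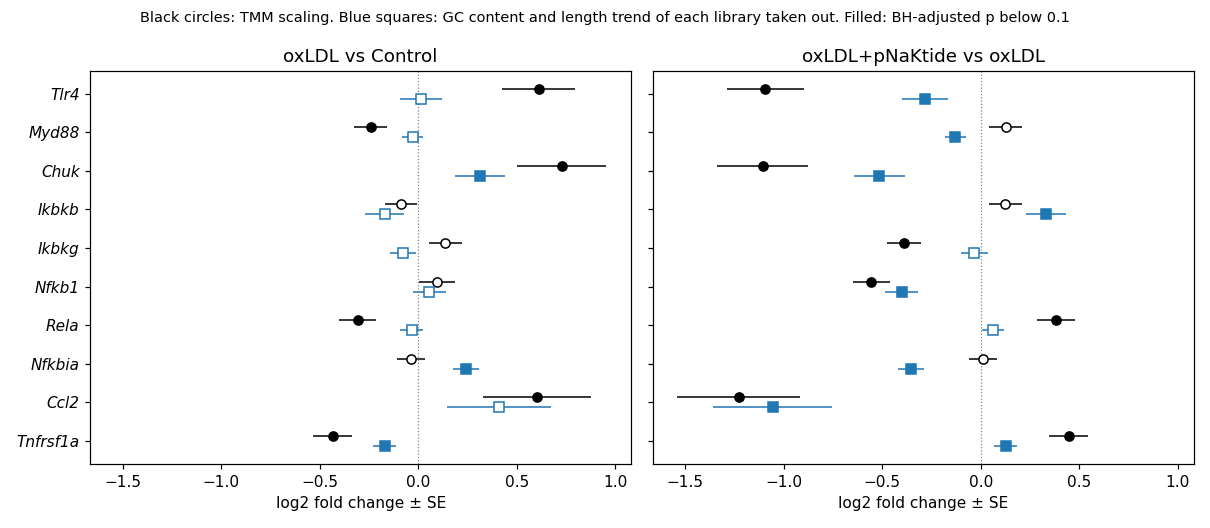
Log2 fold change ± SE (x axis) of the 10 pathway genes (y axis) before (black circles) and after (blue squares) the trend of each library over GC content and length was taken out. Filled symbols passed a BH-adjusted p of 0.1. Tlr4 moves from 0.61 to 0.01 with oxLDL, and Nfkbia moves from -0.04 to 0.24 with oxLDL and from 0.01 to -0.35 with pNaKtide added.

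With IS, Tnfrsf1a alone of the 10 genes was called, at 262, 274, 280.3, 380.4 and 281 CPM against 301, 384, 380.4, 401 and 412 CPM in Control (log2 fold change -0.35 ± 0.10, adjusted p = 0.0694), beside 7.94% of all genes. IS replicate 4 stood among the Control libraries and Control replicate 1 nearer to the IS libraries. The call was kept without either of these 2 libraries (adjusted p = 0.00227 without IS replicate 4 and 0.0053 without Control replicate 1) and lost without any one of the other 8. In those 8 fits 0.0747 to 1.52% of all genes were called. With the trend out the log2 fold change of Tnfrsf1a was -0.18 ± 0.06 (adjusted p = 0.0889), beside 4.18% of all genes. Chuk was 57.1, 57.8, 55.3, 22.1 and 51.8 CPM with IS, so 4 of 5 libraries lay above every Control library and IS replicate 4 below every one, and its change did not pass the test (0.55 ± 0.23, adjusted p = 0.141). Tlr4 was at 12.3, 10.3, 11.1, 5.92 and 11.1 CPM, with replicate 4 the lowest (0.33 ± 0.18, adjusted p = 0.254). Without IS replicate 4, 7 of the 10 genes were called, beside 34.4% of all genes, and without Control replicate 1, 4 were, beside 33.4%. This pair was picked for leaving out together after the values were seen, because each library lay toward the other group. Such a choice widens the difference by itself, so the p-values of that fit are no separate evidence. With both left out, Tlr4 (0.64, adjusted p = 0.00204), Chuk (0.90, adjusted p = 0.000966), Ikbkg and Nfkb1 were higher and Myd88, Rela (-0.38, adjusted p = 0.00064) and Tnfrsf1a (-0.52, adjusted p = 3.29e-05) lower, and 45.8% of all genes were then called. Without the same 2 libraries, oxLDL gave 6 calls among the 10 genes, beside 48% of all genes: Tlr4 (0.79), Chuk (0.90) and Ikbkg (0.18) higher and Myd88 (-0.29), Rela (-0.37) and Tnfrsf1a (-0.50) lower. Nfkb1 (0.08, adjusted p = 0.492) and Ccl2 (0.56, adjusted p = 0.105) were not called with oxLDL in that fit. IS and oxLDL were not tested against each other. Ccl2, with all libraries, was at 1.16 ± 0.402 CPM with IS against 1.29 ± 0.275 CPM in Control (adjusted p = 0.83).

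pNaKtide alone changed none of the 10 genes beyond the test, and 1 of all genes tested was called (0.00497%, with 1233 at an unadjusted p below 0.05, and 57 called by DESeq2). The log2 fold changes ran from -0.41 in Ccl2 (95% interval -1.07 to 0.25) to 0.03 in Ikbkb (-0.14 to 0.20), and those of Nfkb1 (-0.20, unadjusted p = 0.0349) and Ikbkg (-0.19, unadjusted p = 0.0269) were nominally below 0. Added to IS, the peptide changed none of the 10 and no gene at all passed in edgeR (0%, with 564 at an unadjusted p below 0.05, and 14 called by DESeq2). Chuk changed by -0.10 (95% interval -0.56 to 0.35) and Tlr4 by 0.04 (-0.32 to 0.40). IS+pNaKtide against Control gave no call among the 10 genes (0.358% of all genes), and 5 without Control replicate 1 (26.9% of all genes). Compared with Control, oxLDL+pNaKtide cells had lower Nfkb1 and Ikbkg (-0.25 ± 0.08, adjusted p = 0.0985), beside 5.2% of all genes. The call of Ikbkg was kept in 3 of 10 fits that each left out 1 library and lost with the trend out (adjusted p = 0.406), whereas Nfkb1 stayed lower by that fit (-0.35 ± 0.09, adjusted p = 0.0123), which called 9.86% of all genes. Myd88 was called in that fit and not without the offset (-0.16 ± 0.05, adjusted p = 0.0691), with trend-out levels of 52.0 to 53.5 CPM with oxLDL+pNaKtide and 55.4 to 60.5 CPM in Control that did not overlap, as was so for 5.35% of all genes on that scale.

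The effect of pNaKtide in the presence and absence of oxLDL was compared directly by an interaction term, and 5 of the 10 genes passed (24.6% of all genes). The effect in oxLDL-treated cells was lower than in Control cells for Tlr4 (difference -0.99 ± 0.27 on the log2 scale, adjusted p = 0.027), Chuk (-0.93 ± 0.33, adjusted p = 0.0538) and Nfkb1 (-0.35 ± 0.13, adjusted p = 0.0658). It was higher for Rela (0.43 ± 0.14, adjusted p = 0.0359) and Tnfrsf1a (0.55 ± 0.14, adjusted p = 0.0242). Both Chuk and Nfkb1 lost the call without Control replicate 2, Control replicate 4, oxLDL+pNaKtide replicate 4 or pNaKtide replicate 3 (15.7, 14.9, 12.6 and 10.5% of all genes called), and Nfkb1 also without oxLDL replicate 1 (19.6%). With the trend out, Tnfrsf1a (0.22 ± 0.08, adjusted p = 0.0902) and Nfkbia (-0.29 ± 0.09, adjusted p = 0.0609) passed, the latter from 0.03 without the offset, beside 11.1% of all genes. The calls of Tlr4 (adjusted p = 0.325), Chuk, Nfkb1 and Rela ended in that fit. The same term for IS passed for none of the 10 genes and for no gene tested (0%, with 619 at an unadjusted p below 0.05).

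The wider pathway was described with 7 lists of 115 other genes, of which 98 had enough counts to be tested. Several of the best known inflammatory targets were near 0 in these cells. Over all 30 libraries Tnf had 3 counts and Il1b 3, Icam1, a leukocyte adhesion molecule, had 5, and Il6 had 17. With oxLDL, 27 of the 98 genes were higher and 18 lower, with a median log2 fold change of 0.13 against 0.04 over all genes, and 17 of these 45 calls held in direction with the trend out. Of all genes 18.1% were called higher and 18% lower. With pNaKtide added, 14 were higher and 36 lower (median -0.17 against -0.09), of which 24 held, beside 22.1% and 26.1% of all genes. With IS, 11 were higher and 5 lower, beside 7.94% of all genes called, and 6 of these 16 held. This count was 42 without Control replicate 1 or without IS replicate 4 (33.4% and 34.4% of all genes), and 0 to 6 without any of the other 8 libraries (0.0747 to 1.52% of all genes). oxLDL+pNaKtide against Control gave 8 lower and 0 higher, beside 5.2% of all genes called, but 12 lower and 7 higher with the trend out (9.86%). IS+pNaKtide against Control gave 0 calls, or 39 when Control replicate 1 was left out (26.9% of all genes) and 4 with the trend out (2.14%). The comparisons of pNaKtide with Control and of IS+pNaKtide with IS gave 0 calls in these lists in both fits. The counts for single lists given next are to be read against the 36% of all genes called with oxLDL and the 48.3% called with pNaKtide added, and nothing particular to a list is drawn from them.

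Of the receptors and ligands, 4 of 11 were higher and 1 lower with oxLDL, and 0 were higher and 5 lower with pNaKtide added. Tlr2, which senses bacterial lipoproteins, fell by 0.79 ± 0.14 on the log2 scale with pNaKtide added (adjusted p = 6.49e-05, and by 0.75 with the trend out) and was also lower than in Control (-0.74 ± 0.14, adjusted p = 0.00431). Cd36, a scavenger receptor that takes up oxLDL, was higher with oxLDL (0.53 ± 0.14, adjusted p = 0.0109) and fell by 0.73 ± 0.14 with pNaKtide added (adjusted p = 0.000159), but with the trend out both values changed sign, to -0.18 and 0.18. Cd14, the co-receptor of TLR4, was lower with oxLDL (-0.47 ± 0.15, adjusted p = 0.024, and -0.24 with adjusted p = 0.219 with the trend out). Of the adaptors and IRAK kinases, 3 of 12 were higher and 2 lower with oxLDL, and 1 was higher and 6 lower with pNaKtide added. Tirap, the bridging adaptor between TLR4 and MyD88, was higher with oxLDL (0.49 ± 0.13, adjusted p = 0.0117) and with IS (0.55 ± 0.13, adjusted p = 0.047), and both calls held with the trend out. Irak2, a kinase downstream of MyD88, fell by 0.57 ± 0.12 with pNaKtide added (adjusted p = 0.000343, and by 0.72 with the trend out). Ticam1, the adaptor of the MyD88-independent route, was lower with oxLDL (-0.41 ± 0.09, adjusted p = 0.00782), a call lost with the trend out (adjusted p = 0.107).

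Of the 15 IKK-activating kinases and ubiquitin ligases, 6 were higher and 3 lower with oxLDL, and 3 were higher and 7 lower with pNaKtide added. Rbck1 and Sharpin, which with Rnf31 form the linear ubiquitin ligase, were higher with pNaKtide added (0.66 ± 0.12 and 0.39 ± 0.08, adjusted p = 0.000126 and 0.000193), also with the trend out (0.40 and 0.18). Ripk1, the kinase recruited to TNF receptor 1, fell by 0.38 ± 0.07 (adjusted p = 0.000179), a change that was gone with the trend out (adjusted p = 0.994). In the TNF and interleukin 1 receptor arm, 6 of 13 were higher and 4 lower with oxLDL, and 3 were higher and 5 lower with pNaKtide added. Il1r1 and Il1rap, the 2 chains of the interleukin 1 receptor, fell by 1.00 ± 0.17 and 1.09 ± 0.15 on the log2 scale with pNaKtide added (adjusted p = 4.46e-05 and 1.03e-05, and by 0.56 and 0.42 with the trend out). Of the other NF-κB subunits, Nfkb2, the p100 precursor of the noncanonical route, was lower with oxLDL (-0.46 ± 0.11, adjusted p = 0.00833) and higher with pNaKtide added (0.48 ± 0.11, adjusted p = 0.000957), in both cases also with the trend out. Nfkb1 and Nfkb2 thus moved in opposite directions with pNaKtide added.

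Of 15 other inhibitors and deubiquitinases, 4 were higher and 2 lower with oxLDL, and 2 were higher and 5 lower with pNaKtide added. Tnfaip3 (A20), a deubiquitinase induced by NF-κB that ends its activation, was higher with oxLDL (0.45 ± 0.13, adjusted p = 0.0144) and fell by 0.68 ± 0.14 with pNaKtide added (adjusted p = 0.000198). Both calls of Tnfaip3 held with the trend out (0.31 and -0.41). The libraries of the groups compared did not overlap, where 8.35% of all genes showed this with oxLDL and 28.4% with pNaKtide added. Among 29 NF-κB target genes tested, 4 were higher and 4 lower with oxLDL, and 3 were higher and 7 lower with pNaKtide added. Cxcl1, a neutrophil chemokine, was higher with oxLDL, at 1.30 ± 0.219 against 0.552 ± 0.380 CPM (log2 fold change 1.19 ± 0.33, adjusted p = 0.0124, and 0.99 with the trend out), and was 0.853 ± 0.358 CPM with oxLDL+pNaKtide (adjusted p = 0.146). Ptx3, a pattern recognition protein, fell by 0.68 ± 0.18 with pNaKtide added (adjusted p = 0.00223), and C3, the central complement protein, was higher (0.65 ± 0.12, adjusted p = 0.000117), both also with the trend out. Vcam1, an adhesion molecule, fell by 0.81 ± 0.14 (adjusted p = 6.36e-05), a change that was not seen with the trend out (-0.07, adjusted p = 0.823).

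**Figure D5:**
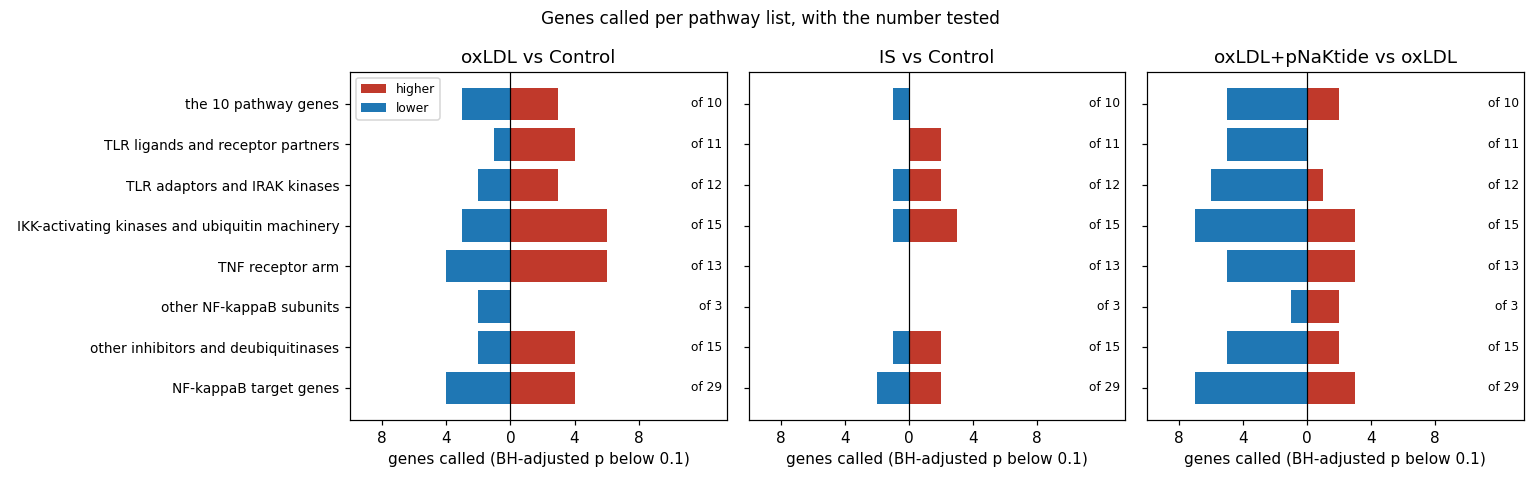
Number of genes called higher (red, right of 0) and lower (blue, left of 0) at a BH-adjusted p below 0.1 (x axis) in the 10 pathway genes and the 7 other lists (y axis), with the number tested. With oxLDL 27 of the 98 genes in the 7 lists were higher and 18 lower, and with pNaKtide added 14 were higher and 36 lower.

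The genes whose pattern over the 30 libraries was nearest to that of a pathway gene were measured by the root-mean-square difference of centred log2 CPM, over 12579 genes for Tlr4 and Chuk. Nearest to Tlr4, whose own SD was 0.46, were Ddx3x (0.150), Tmem106b (0.151) and Tbc1d23 (0.154). Nearest to Chuk (SD 0.55) were Rhobtb3 (0.109) and Zfp638 (0.110). These 5 genes had a GC content between 41.0 and 44.9%, near that of Tlr4 and Chuk. For Ccl2 (SD 0.59) the nearest, Ereg (0.408), Nup37 (0.427) and Thumpd2 (0.443), were further away, out of 12580 genes compared.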

How the data were processed

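RNA sequencing of 30 libraries of 3T3-L1 cells, 5 in each of 6 groups, was used, each library in the group of its label. The count values were made by the authors, who trimmed paired-end reads of stranded mRNA libraries (Trimmomatic 0.38), aligned them to GRCm38 (HISAT2 2.1.0) and counted them per gene, without normalization or pooling; the tools and versions are from the submitters' processing notes. The FPKM values, as deposited, were normalized counts that the authors divided by a value per gene, and the gene lengths behind them are not stated. Annotation release and strand setting: not given in the sources used here, so reads of overlapping genes cannot be told apart. The deposited table of normalized counts was not used.

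Symbols, exon length and GC content came from GENCODE annotation of GRCm38 (54079 of 54232 identifiers matched), and promoter windows from RefSeq. The count filter kept genes whose sum over all libraries was above 14, and the test was edgeR 4.0.16 (TMM scaling, robust quasi-likelihood, all 6 groups, 7 comparisons of groups, 2 interactions and the overall difference), and p-values were adjusted by BH over all 20139 genes of a comparison, with a threshold of 0.1. Each SE is the size of the log2 fold change divided by the square root of the F value, and 95% intervals use it with the degrees of freedom of the model. GC and length trends were smooths fitted with mgcv 1.9.3. Figures were made in Python with matplotlib. The statistical steps were first tested on simulated data. Where a slope over GC content was simulated between 2 groups, the fit without the offset called 2696 unchanged genes and the fit with it 20. That slope was the same in every library of the oxLDL group and of the kind that the offset fits. The simulation therefore cannot show which calls in these data are right. No pair of libraries in a group was a duplicate (lowest chi-square per degree of freedom 1.28 over 60 pairs). Depth was at least 6945498 counts per library.

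The 10 genes and the lists were chosen with earlier results of these data known. Named list genes are at most 2 per direction, list and comparison with the smallest adjusted p among those called, besides Tnf, Il1b, Il6, Cxcl1, Icam1, Vcam1 and Tnfaip3. Only some of the genes this rule gives are described, and these were picked after their values were seen. For Tlr4, Chuk and Ccl2 the 3 genes of nearest pattern are named, among genes whose mean log2 CPM reached 1, except 1 gene that is not reported here. Alternatives were DESeq2 1.42.0, its size factors, library size alone, other count filters, limma 3.58.1 on log2(FPKM + 1) above a mean FPKM of 0.5, a replicate block, the trend out, the compared groups alone, a threshold of 0.05, and left-out libraries.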

Additional observations from a re-analysis of the deposited data

Results flagged for a closer look

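In 6 of the 60 groups of 5 libraries checked for these 10 genes, the highest or lowest library stood apart from the other 4 by Dixon's criterion, which chance meets in about 1 in 20 groups. With IS, replicate 4 was high for Myd88 (68.2 CPM, where the other 4 ran from 51.3 to 55.2) and Tnfrsf1a (380.4 CPM, others 262 to 281) and low for Chuk (22.1 CPM, others 51.8 to 57.8). Control replicate 1 was low for Tnfrsf1a (301 CPM, others 380.4 to 412). pNaKtide replicate 3 was high for Chuk (49.6 CPM, others 22.7 to 27.0) and oxLDL replicate 4 for Rela (53.8 CPM, others 45.9 to 47.4). The GC slope of IS replicate 4 (0.26), Control replicate 1 (-0.17) and pNaKtide replicate 3 (-0.15) also stood apart from the medians of their groups (-0.25, 0.25 and 0.24), and its part in these values was not tested.

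The effect of pNaKtide differed between cells with and without oxLDL in 5 of the 10 genes by the interaction term in edgeR. The difference was -0.99 for Tlr4, -0.93 for Chuk, -0.35 for Nfkb1, 0.43 for Rela and 0.55 for Tnfrsf1a (log2). With the trend over GC content and length out, Tnfrsf1a was the only one of these 5 to pass (0.22, adjusted p = 0.0902).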

How the results depend on the processing

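The number of the 10 genes called in oxLDL+pNaKtide against oxLDL stayed between 6 and 8 in all alternatives, and was 7 or 8 without any 1 library. The genes behind this number changed: of the 8 called with the trend out, 5 were also called in the same direction without the offset. With oxLDL the number was 6 (4 to 6 without 1 library, beside 24.7 to 46.1% of all genes), and Ccl2 was lost from it at 0.05. Once the trend over GC content and length was out it was 3, of which 2 were called in both fits. For IS it was 1, and 3 in DESeq2, 2 with library size alone, 2 with the replicate block, 0 with the compared groups alone, 0 at an adjusted p of 0.05, 7 without Control replicate 1 and IS replicate 4 together, and 0 to 7 without 1 library (7 without IS replicate 4, 4 without Control replicate 1, 0 without any other). For oxLDL+pNaKtide against Control it was 2, and 1 with RLE size factors, with all genes of at least 1 count, without those 2 libraries or at 0.05, 0 with the compared groups alone, 3 with the replicate block, and 1 to 3 without 1 library (1 without Control replicate 1, 3 or 5 or oxLDL+pNaKtide replicate 1, 3, 4 or 5, fits that called 2.51 to 6.17% of all genes). For IS+pNaKtide against Control it was 0, and 1 in DESeq2, with the replicate block or with the compared groups alone, 5 without those 2 libraries, and 0 to 5 without 1 library, with the 5 reached without Control replicate 1. The interaction with oxLDL gave 5, and 3 with all genes of at least 1 count or at 0.05, 2 with the trend out, 7 without those 2 libraries, and 3 to 6 without 1 library (3 without Control replicate 2 or 4, oxLDL+pNaKtide replicate 4 or pNaKtide replicate 3, where 15.7, 14.9, 12.6 and 10.5% of all genes were called). The calls for pNaKtide alone, for IS+pNaKtide against IS and for the interaction with IS were 0 in every alternative. For IS, the share of all genes called was 7.94%, and 15.7% in DESeq2, 12.6% with library size alone, 17% with the replicate block and 0% with the compared groups alone. It was 34.4% without IS replicate 4, 33.4% without Control replicate 1 and 0.0747 to 1.52% without any other library of that comparison. For oxLDL+pNaKtide against Control it was 5.2%, and 5.17% with RLE, 2.24% with at least 1 count, 0.0702% with the compared groups alone, 8.21% with the block and 6.53% without the 2 libraries. For IS+pNaKtide against Control it was 0.358%, and 7.38% in DESeq2, 6.64% with the block, 7.39% with the compared groups alone and 32.7% without the 2 libraries. For the interaction it was 24.6%, and 12.5% with at least 1 count, 11.1% with the trend out and 40.3% without the 2 libraries. Over all alternatives at the threshold of 0.1, the share ran from 0 to 45.8% for IS and from 11.1 to 46.4% for the interaction. It ran from 0.0702 to 14.4% for oxLDL+pNaKtide and from 0.146 to 32.7% for IS+pNaKtide, each against Control. For oxLDL it ran from 19 to 58%, and for pNaKtide added to oxLDL from 30.3 to 71.8%. The cause of these changes was not tested.

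Nfkbia changed sign with the trend out, to 0.24 with oxLDL, -0.35 with pNaKtide added and -0.29 in the interaction, and to -0.21 with library size alone for pNaKtide added (adjusted p = 0.0109), a scaling that moved the median of all genes in that comparison from -0.09 to -0.30. Relative to that median Nfkbia stayed higher under both scalings. Myd88 changed sign with the trend out for pNaKtide added, to -0.13. The labels do not say whether a replicate number marks a shared culture, deviations of same-numbered libraries correlated between -0.66 and 0.74, and in no comparison of groups did every pair pass 0.1, so the replicate block (7 calls for pNaKtide added to oxLDL, 6 for oxLDL) is given for completeness. Depth limits Ccl2, which had 2 to 30 counts per library.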
